A study of Homo sapiens with 12 samples.

Results

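The data are the deposited list of peaks from anti-Flag chromatin immunoprecipitation (ChIP-seq) of RNaseH1-D210N in U2OS cells. Every row of the list was taken, which gave 54623 of the 56083 peaks in the 2 lists of the study. A peak is a region in which the authors' caller found more fragments than a local background predicts, and its summit is the base of highest coverage. U2OS is a human osteosarcoma line, and the cells carried a tet-on transgene for the Flag-tagged, nuclease-dead mutant of RNaseH1, so all libraries used for this list carry that transgene. Cells were kept for about 60 h with doxycycline at 1 µg/ml, which switches the transgene on, or without it. Each treatment has 2 Flag ChIP libraries and 1 input library. These are 6 of the study's 12 libraries, and the others come from a line with REXO4-D386A. The study asked whether the proteins bind R-loops.

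Several features limit what the list can show. It carries 1 value per peak and none per library, so no value below has a replicate error and no test between samples was possible. The depth of each library is likewise unknown. Which libraries and control entered the peak calling, and at which threshold, is not stated, and the peak names carry the label ChIPseq2, so the list may rest on a single replicate. No peak list without doxycycline was analysed here. The protein is an induced transgene product, and its level relative to endogenous RNase H1 is not known. Whether the line is 1 clone is not stated in the labels.

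RNase H1 is an enzyme that binds RNA:DNA hybrids and cuts their RNA strand. R-loops are such hybrids formed when RNA pairs with 1 strand of a duplex and leaves the other strand single, and they are known from CpG-rich promoters, transcribed gene bodies and repeated RNA genes. A mutant that binds a hybrid but cannot cut the RNA is widely used to mark where hybrids lie.

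The sequences of 5 gene starts show how far GC content went with the presence of a summit, and where it did not. Each is the 250 bases before the outermost annotated start of the gene, 5′ to 3′ on the gene's strand, from RefSeq on GRCh38.p14, with every CG pair in capitals. CAMTA1, a calmodulin-binding transcription activator, and BAHCC1, a chromatin-binding protein, are among the genes with most summits or most summits per length, and each had a summit in the sequence shown. DMD, the gene of dystrophin, CTNND2, a catenin of neurons, and FRMPD4, a scaffold protein of synapses, are among the longest protein-coding genes with no summit at all.
CAMTA1: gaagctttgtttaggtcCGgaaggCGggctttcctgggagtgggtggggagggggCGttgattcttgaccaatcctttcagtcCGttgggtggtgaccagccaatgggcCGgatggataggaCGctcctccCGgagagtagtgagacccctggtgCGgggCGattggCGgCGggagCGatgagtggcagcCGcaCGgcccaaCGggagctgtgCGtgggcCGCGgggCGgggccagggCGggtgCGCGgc
BAHCC1: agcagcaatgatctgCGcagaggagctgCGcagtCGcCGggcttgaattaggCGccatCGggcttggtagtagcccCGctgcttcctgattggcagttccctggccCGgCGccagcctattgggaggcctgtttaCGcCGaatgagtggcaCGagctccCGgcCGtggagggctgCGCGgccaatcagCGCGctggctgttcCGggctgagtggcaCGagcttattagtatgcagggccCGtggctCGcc
DMD: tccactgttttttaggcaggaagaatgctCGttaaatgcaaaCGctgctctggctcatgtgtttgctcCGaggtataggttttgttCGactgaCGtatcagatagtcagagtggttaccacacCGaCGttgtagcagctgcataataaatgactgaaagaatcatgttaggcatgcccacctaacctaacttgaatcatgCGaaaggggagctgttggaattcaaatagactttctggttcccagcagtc
FRMPD4: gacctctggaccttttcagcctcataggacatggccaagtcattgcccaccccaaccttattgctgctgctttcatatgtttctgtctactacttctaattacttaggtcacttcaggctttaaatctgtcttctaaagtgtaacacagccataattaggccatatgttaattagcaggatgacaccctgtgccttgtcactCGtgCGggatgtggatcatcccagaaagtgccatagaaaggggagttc
CTNND2: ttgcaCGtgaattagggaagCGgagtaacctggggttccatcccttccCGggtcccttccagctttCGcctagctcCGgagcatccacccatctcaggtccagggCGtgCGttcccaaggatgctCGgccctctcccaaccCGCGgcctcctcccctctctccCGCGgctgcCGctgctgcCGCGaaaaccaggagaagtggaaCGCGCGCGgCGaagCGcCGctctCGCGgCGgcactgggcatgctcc
The CAMTA1 sequence (chr1:6785204-6785453, plus strand) has 22 CG pairs and a GC content of 68.0%. Its summit lay 4 bp before the start, with 63 fragments against an expected 16.1, a fold of 3.75. The BAHCC1 sequence (chr17:81395207-81395456, plus strand) also has 22 CG pairs, at 65.2% GC, and its summit lay 97 bp before the start with 81 fragments against 33.4, a fold of 2.38. The DMD sequence (chrX:33339389-33339638, minus strand) has 8 CG pairs and 44.8% GC, and that of FRMPD4 (chrX:11822189-11822438, plus strand) has 2 and 45.2%. CTNND2 (chr5:11904447-11904696, minus strand) has 25 CG pairs and 67.2% GC, more CG pairs than either sequence with a summit, and no summit anywhere in the gene. It is no lone exception. Of the longest genes without a summit, 3 more had a sequence at their outermost start: TRPM3 with 23 CG pairs and 70.4% GC, PCDH11X with 12 and 66.4%, and TENM1 with 8 and 54.0%. GC-rich and GC-poor starts were thus both found among the longest genes without a summit.

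Fold here is the authors' enrichment at the summit, the ratio of fragments to the local expectation with 1 added to each. The fragments and the expected pileup were recovered from the fold and the p-value of each peak. Across the list the fold ran from 1.35 to 43.4.

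Summits gathered at gene starts and lay mostly just inside the transcribed side. Starts of 27195 protein-coding and lncRNA genes on 22 chromosomes (all but chromosome 8 and Y) were compared with 50453 summits. Of these summits, 8704 (17.3%) lay within 250 bp of a start, 13418 (26.6%) within 1 kb and 18337 (36.3%) within 5 kb. Within 1 kb, 9264 summits (69.0%, 95% exact binomial interval 68.3 to 69.8, counting error only) lay downstream, 4127 upstream and 27 on the start itself. Their median position was 101 bp downstream (interquartile range 44 bp upstream to 237 bp downstream). At protein-coding starts 71.4% of 11280 summits were downstream, at a median of 108 bp, and at lncRNA starts 56.8% of 2138 were, at 48 bp. Summits and starts share neighbours, so the interval treats as independent what is not.

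Gene ends showed no such gathering. The comparison used protein-coding genes of 20 kb or more, with 5104 starts and 7667 ends that had no other gene start within 5 kb. Starts had 70.0 summits per 100 genes within 1 kb, 20.2 upstream and 49.8 downstream. Farther out, between 3 and 5 kb, the same starts had 3.49 summits per 100 genes upstream and 3.41 downstream. Ends had 5.44 summits per 100 genes within 1 kb, 2.53 before the end and 2.91 after it. Between 3 and 5 kb from the end they had 5.24 before and 5.50 after it, over a length that is the same as the 2 sides of the 1 kb window together. The level at ends was thus that of the surrounding sequence.

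**Figure D1:**
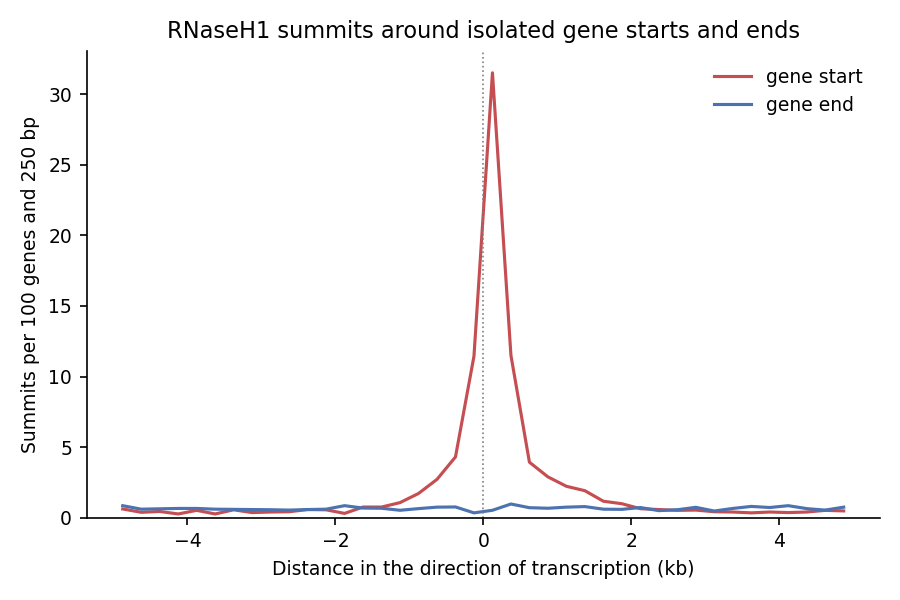
Summits per 100 genes in steps of 250 bp (y axis) by distance in kb from the annotated start or the annotated end of a protein-coding gene (x axis), for genes of 20 kb or more whose start or end has no other start within 5 kb. The starts show a narrow maximum just downstream, with 49.8 summits per 100 genes in the first 1 kb inside the gene, and the ends stay low throughout.

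The peaks at starts were wide, lay on high expected pileup and were called with small q, while those far from starts were narrow. The 8704 summits within 250 bp of a start had a median region of 755 bp, an expected pileup of 24.9 fragments and a fold of 3.13, and 86.7% had a q of 1e-05 or less. The 4714 summits from there to 1 kb had 605.5 bp, 18.7 fragments and 2.82, with 68.7% at that q. From 5 to 20 kb, 12013 summits had 328 bp, 6.55 fragments and 3.02, with 31.7% at that q. Beyond 100 kb, 3957 summits had 307 bp, 4.76 fragments and 3.28, with 29.4%. The median fold was therefore near 3 at every distance, and what fell with distance was the number of fragments behind it. On low expected pileup a peak needs a higher fold to reach a given p. Over all peaks the Spearman correlation of fold with expected pileup was -0.307. Folds of listed peaks thus depend partly on the calling threshold, and its part in the steady median was not tested. In all, 32116 summits (63.7%) were more than 5 kb from any start used, with a median width of 320 bp and a fold of 3.10. For these, 31.0% had a q of 1e-05 or less.

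The share of promoters with a summit rose with their GC content. A promoter is here the RefSeq window from 250 bases before to 50 after a start, with 22132 windows of protein-coding and 12829 of lncRNA genes. A summit lay inside the window itself in 17.2% of protein-coding and 8.45% of lncRNA windows, and within 1 kb of the start in 62.4% and 27.2%. Under 40% GC, 5.92% of protein-coding windows had a summit within 1 kb. From 50 to 55% GC, 41.6% did, and at 75% GC or more, 89.2%. The lncRNA windows rose the same way, from 2.15% through 18.3% to 86.3%. At equal GC the lncRNA share stayed below the protein-coding share in the middle of the range, with 33.7% against 59.1% from 55 to 60% GC. It came close at the top, with 83.4% against 88.0% from 70 to 75%. Protein-coding windows with a summit within 1 kb had a median GC of 66.7%, against 51.7% for those without. Their CpG observed over expected, the number of CG pairs relative to what base composition alone gives, was 0.845 (interquartile range 0.717 to 0.953) against 0.291 (0.158 to 0.530).

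GC skew, the excess of G over C on the gene's own strand that is known from R-loop-forming starts, separated the windows far less. In the 50 bases after the start its median was 0.103 (interquartile range -0.0714 to 0.250) with a summit and 0.0370 (-0.143 to 0.200) without, for protein-coding windows. For lncRNA windows it was 0.0345 and 0.0370. The interquartile ranges with and without a summit overlap over most of their length. At equal GC, protein-coding medians were 0.118 with a summit and 0.0417 without from 55 to 60% GC, and 0.118 and 0 from 65 to 70%. Under 40% GC the order was reversed, at 0 and 0.0476. For lncRNA windows of 55 to 60% GC they were 0.0370 and 0.0345. Mappability and sequencing yield along the promoters were not measured here.

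**Figure D2:**
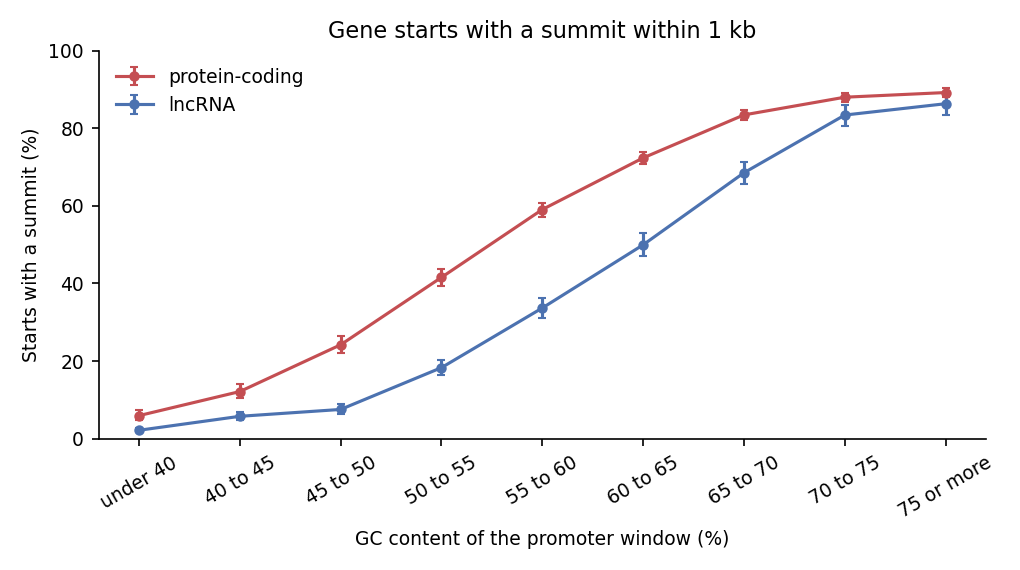
Percent of RefSeq promoter windows with a summit within 1 kb of the start (y axis) by GC content of the window in percent (x axis), for protein-coding and lncRNA genes, with 95% exact binomial intervals. Both lines climb from under 6% below 40% GC to over 86% at 75% GC or more.

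Short motifs were searched on both strands of the same windows, and a match is a description, not a site. GGGCGG, the core of the GC box of SP and KLF factors, occurred in 56.3% of all protein-coding windows, in 74.5% of those with a summit within 1 kb and in 26.1% of those without. CCGGAAG, an ETS motif, occurred in 12.8%, 18.4% and 3.60%, and TGACGTCA, the cAMP response element of CREB and ATF factors, in 2.26%, 3.0% and 1.03%. These letters are rich in G and C, so windows of 55 to 65% GC were taken alone. There, 77.7% of windows with GGGCGG had a summit against 54.0% of those without it, 87.4% with CCGGAAG against 62.1%, and 84.6% with TGACGTCA against 66.0%. The other 2 motifs went the other way. TGACTCA, the AP-1 element, occurred in 2.57% of windows with a summit and 6.40% of those without (4.01% of all), and TATAAA, the TATA box, in 4.72% and 17.3% (9.46% of all). Within 55 to 65% GC, 50.4% of windows with TGACTCA had a summit against 67.2% of those without it, and 55.0% with TATAAA against 67.2%. In lncRNA windows of the same GC content, TGACTCA went the same way, with 30.6% against 41.7%, but TATAAA did not, with 45.3% of windows with the motif against 40.96% of those without. The 3 motifs above kept their direction there, with 55.6% against 32.3% for GGGCGG, 60.9% against 38.6% for CCGGAAG and 72% against 40.5% for TGACGTCA. Of all lncRNA windows, 148 had TGACGTCA and 833 had TGACTCA, and only part of them fall in this GC range. No interval was computed for these shares, so a small difference such as that for TATAAA cannot be read as a reversal.

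The regions of the list were short, and their width followed coverage rather than enrichment. All 54623 rows are distinct regions with 1 summit each. The median width was 365 bp (interquartile range 283 to 605 bp), and together the regions cover 27.9 Mb. The shortest width, 250 bp, was shared by 4743 peaks (8.68%), which marks a lower limit on region length. At the other end, 5409 peaks (9.90%) were 1 kb or wider, 294 (0.538%) were 2 kb or wider and 34 were 3 kb or wider. Over all peaks the Spearman correlation of width with fold was 0.0591, and that of width with expected pileup 0.655. These points share 1 library or pool, and fold is computed from the expected pileup, so the values are descriptions. Peaks of 250 bp had a median of 16 fragments against an expected 4.61, a fold of 3.03. Those of over 300 to 400 bp had 20 against 5.95, those of over 600 to 1000 bp had 70 against 20.8, and those of over 2000 bp had 115 against 33.9, a fold of 3.29. Fragments thus rose severalfold from the narrowest to the widest class while the median fold of the listed peaks stayed close to 3. The limit that the calling threshold sets on folds holds here too.

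The widest region lay over 45S ribosomal DNA, which encodes the precursor of the large rRNAs, at RNA45SN2 (chr21:8213724-8219951, 6228 bp, fold 3.50). The next, of 6071 bp with a fold of 5.07, covered RNA45SN1 (chr21:8441061-8447131). Outside rDNA the widest were 5475 bp at MIDN, a midnolin gene tied to protein degradation (chr19:1248027-1253501, 3.26), and 4853 bp at PTMA, which encodes prothymosin alpha (chr2:231706377-231711229, 3.59). A tRNA gene cluster on chromosome 1 had a region of 4528 bp with a fold of 6.40 (chr1:161461367-161465894). The other 3 of the 8 widest lay on unplaced or unlocalized scaffolds. Ribosomal and tRNA genes occur in near-identical copies, so fragments at them cannot be assigned to 1 copy.

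Distances between neighbouring summits had 2 maxima. Over 53007 distances on chromosomes 1 to 22 and X, the median was 18.2 kb (interquartile range 5.80 to 50.9 kb) and the mean 55.8 kb, which is 3.07 times the median. A mean so far above the median shows that summits were unevenly spread. The closest pair was 142 bp apart, 3890 distances (7.34%) were 1 kb or less, and 19029 (35.9%) were 10 kb or less. On a log scale the counts reached a first, small maximum of 1293 distances between 794 bp and 1.00 kb, fell to 975 between 1.58 and 2.00 kb, and rose to a main maximum of 3092 between 25.1 and 31.6 kb. In the first range, neighbours from 500 bp to 1.5 kb apart numbered 5151 on the 22 chromosomes with start positions. Of these pairs, 48.4% had a summit within 1 kb of a gene start, and 30.5% had a start between the 2 summits. Among all 50431 pairs, 43.1% had a summit near a start, so the short distances were not found at starts alone.

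**Figure D3:**
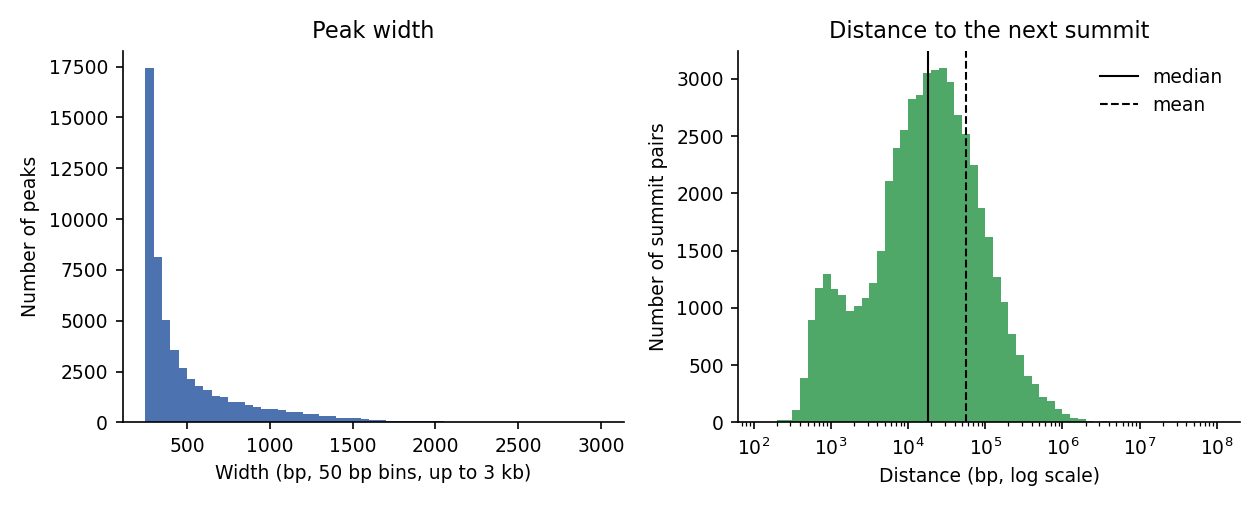
Left, number of peaks by region width in steps of 50 bp, up to 3 kb; right, number of neighbouring pairs by the distance between their summits in bp on a log x axis, with lines at the median and the mean. Widths pile up at the lower limit of 250 bp with a tail beyond 1 kb, and distances have a small maximum just under 1 kb and a main one near 30 kb.

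Most summits were alone or in short chains. Summits were chained when the next lay within 10 kb, and a chain of 5 or more is called a cluster here. Single summits numbered 24174 (45.6%), chains of 2 to 4 held 21213, and 1040 clusters held 7643 summits (14.4%). The clusters had a median span of 21.5 kb and a longest span of 104 kb. Together they took up 25.6 Mb, which is 0.866% of the 2959 Mb between the first and last genes of the chromosomes. A protein-coding gene overlapped 927 of the 1040 (89.1%), with a median of 2 genes per cluster, and 40 clusters held a tRNA gene. Protein-coding genes cover 42.6% of the span, and a stretch of many kb touches a gene more often than a single base does. The same shares were not computed for other chains or for stretches of like length, so these counts cannot be read as particular to clusters. Clustered summits had a median fold of 2.83, a width of 424 bp and an expected pileup of 10.7 fragments. Single summits had 3.19, 341 bp and 5.95 fragments, and chains of 2 to 4 lay between. Clustered peaks were thus wider and deeper, and their median fold was not higher. Peaks on lower expected pileup need a higher fold to be called, so these folds do not compare enrichment free of the threshold.

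Most of the 8 clusters with most summits were at repeated RNA genes or in gene-dense sequence near the end of a chromosome, and 1 lay on chromosome X at the lncRNA genes DANT1 and DANT2. The largest, with 43 summits, spanned chr21:8380124-8471912 around RNA45SN3 and RNA45SN1, and 27 more lay at RNA45SN2 (chr21:8197368-8260970). On chromosome 19, 29 summits ran from DAZAP1 and RPS15, an RNA-binding protein and a ribosomal protein, to APC2 (chr19:1422968-1523140), and 27 from STK11, the LKB1 kinase, through MIDN and the cold-inducible CIRBP (chr19:1205281-1296852). On chromosome 22, 25 summits lay at MIRLET7BHG, the host transcript of let-7 microRNAs, and the nuclear receptor gene PPARA (chr22:46069675-46151832).

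Some clusters sat on tandem arrays, where the spacing of summits could be set beside that of the repeat. The 5S rRNA array (chr1:228609083-228648399) held 26 summits and 17 annotated RNA5S genes, which lie a median of 2241 bp apart. The distance between its summits had a median of 1241 bp (1061 to 2221 bp between the quartiles), and that to the next summit but 1 had a median of 3228.5 bp (2249.5 to 3514.75 bp). Neither median equals the distance between the genes. The upper quartile to the next summit and the lower quartile to the next but 1 both lie close to it, however. The median fold was 6.86 and the highest 9.74. The cluster at the U2 snRNA array with RNU2-1 (chr17:43225261-43300874) overlapped 14 annotated genes. Only RNU2-1 was matched by its symbol and the others were not examined, so no distance between genes was taken. The array held 26 summits with a median fold of 3.86 and a highest of 9.22. Its distances were 2489 bp to the next summit and 5199.5 bp (3841.75 to 6815.75 bp) to the next but 1. The cluster at DANT1 and DANT2, lncRNA genes beside the DXZ4 macrosatellite of chromosome X (chrX:115844019-115888477), held 27 summits. Its distances were 1683 bp to the next summit and 3001 bp (2893 to 3485 bp) to the next but 1. SNAR genes, which encode small noncoding RNAs, lay in 3 clusters. That with SNAR-A and SNAR-C genes (chr19:47904207-47955875) had 19 summits and 10 genes a median of 5373 bp apart. Its distance to the next summit but 1 was 5390 bp (5247 to 5534 bp), and its highest fold was 16.8. The other 2 did not show this match of the median to the next summit but 1. The cluster at SNAR-G1 and SNAR-G2 (chr19:49031154-49070861) had 7276 bp (4797 to 11950 bp) with genes 5351 bp apart, and that from SNAR-A4 on (chr19:50091847-50170920) had 7449 bp (4758.5 to 10708.5 bp) with genes 5337 bp apart. Even spacing was not shared by all arrays. The coefficient of variation of the distances was 0.377 at 5S, 0.660 at DANT1 and DANT2 and 0.723 at U2. In the 3 SNAR clusters it was 0.468, 0.722 and 0.627, in the order above. The 5S array and the first SNAR cluster were thus well below the median of 0.713 over 310 clusters of 8 or more summits. The most even of these, at 0.217, lay at EFTUD2 and GFAP (chr17:44895043-44947875), which are no tandem array. Copies within an array are near identical, so reads cannot be assigned to 1 copy.

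Along the chromosomes the number of summits followed the number of genes. Over 2975 bins of 1 Mb the median was 12 summits (interquartile range 5 to 23), the highest was 179, and 192 bins (6.45%) had none. The richest 298 bins held 36.5% of the summits. The Spearman correlation with protein-coding genes per bin was 0.809, and it was 0.478 with the share of the bin that genes cover. Bins share library, mappability and copy number, and neighbouring bins are alike, so these are descriptions. In 435 bins without a protein-coding gene the median was 2 summits. It rose to 5 with 1 or 2 genes, 11 with 3 to 5, 19 with 6 to 10, 32 with 11 to 20 and 55 with more than 20. Summits per gene fell over the same bins, from 4.57 with 1 or 2 genes to 1.96 with more than 20. The correlation of summits per bin with the median expected pileup of its peaks was 0.535 and with their median fold -0.405, over the 2783 bins with a summit. The part of pileup in the relation was not tested.

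The 8 bins with most summits lay within a few Mb of chromosome ends. On chromosome 19, 179 summits fell between 1 and 2 Mb, where 38 genes lie. On chromosome 17, 167 fell between 81 and 82 Mb, with BAHCC1, and 150 between 82 and 83 Mb, with TBCD, a tubulin folding cofactor (28), and FASN, the fatty acid synthase (11). On chromosome 16, 145 fell between 88 and 89 Mb, among them 19 in CBFA2T3, a transcriptional corepressor, and 17 each in BANP and PIEZO1, a mechanically gated channel. The bin after it had 141, of which 23 lay in ANKRD11, a chromatin regulator. The other 3 bins were those from 1 to 2 Mb on chromosomes 1 (137) and 16 (132) and the first Mb of chromosome 19 (131). Bins with a midpoint in the outer 5 Mb of a chromosome's annotated span were 8.30% of all bins and held 13.4% of the genes and 17.8% of the summits. With 11 to 20 genes per bin, 46 such bins had a median of 54 summits (interquartile range 42.3 to 73) and 325 other bins had 31 (21 to 40), with expected pileups of 7.14 and 7.74 fragments. With 6 to 10 genes the medians were 28.5 and 18, and with more than 20 genes 72 and 50.

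Some bins departed from the number of their genes. Many summits per gene were found on chromosome 16 between 85 and 86 Mb (116 summits, 9 genes, with GSE1) and on chromosome 21 between 45 and 46 Mb (72 summits, 6 genes, 16 of them in COL18A1, a basement membrane collagen). Few were found in some bins that hold families of tissue-restricted genes. The bin of keratin-associated protein genes on chromosome 21, from 30 to 31 Mb, had 34 genes and 0 summits. Olfactory receptor genes made up most of a bin on chromosome 11, from 55 to 56 Mb, with 21 genes and 1 summit. The bin with leukocyte receptor genes on chromosome 19, from 54 to 55 Mb, had 41 genes and 9 summits. In the major histocompatibility complex on chromosome 6, the bin from 29 to 30 Mb, with HLA-F and HLA-G, had 23 genes and 2 summits, and that from 32 to 33 Mb had 31 genes and 8. The assembly also holds alternate haplotypes. Of those of chromosome 6, 12 carried 444 peaks, and of those of chromosome 19, 15 carried 63 peaks. In all, 1593 peaks (2.92%) lay on 199 sequences other than chromosomes 1 to 22 and X, and 1366 of them on alternate haplotypes. A read that fits both copies can be counted at either, so low numbers at HLA genes on the main chromosome cannot be told apart from this. The same limit may hold for the leukocyte receptor bin, since the part of chromosome 19 that its haplotypes cover was not examined.

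**Figure D4:**
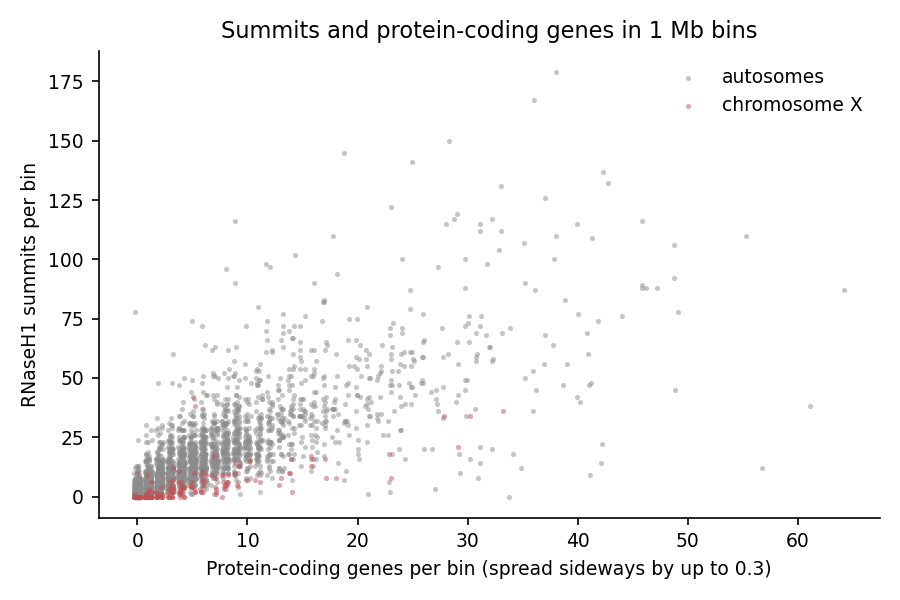
Number of summits per 1 Mb bin (y axis) against the number of protein-coding genes in the bin (x axis, points spread sideways slightly), each point 1 bin, with chromosome X in red and the autosomes in grey. Summits rise with genes from a median of 2 in bins without a gene to 55 in bins with more than 20, and most bins of chromosome X lie low for their number of genes.

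Chromosomes followed the same order, with chromosome X below the autosomes. Chromosome 19 had 57.7 summits per Mb and chromosome 18 had 11.1, the extremes of the autosomes, and X had 5.03. Over the 23 chromosomes the Spearman correlation of summits with genes per Mb was 0.885. Within single chromosomes, the correlation over bins ran from 0.681 to 0.906. Per protein-coding gene X had 0.923 summits and the autosomes 1.97 to 3.64. A summit lay in 45.2% of the protein-coding genes of X, and in 57.6 to 79.1% of those of single autosomes. The expected pileup at peaks of 400 bp or less was 4.76 fragments on X and 4.46 to 7.29 on the autosomes. Over peaks of all widths it was 9.52 on X and 5.36 to 9.54 on the autosomes. The median width was 466 bp on X and 328 to 409 bp on the autosomes, so peaks on X were few but wide. Copy number in U2OS, which is aneuploid, and inactivation of an X copy were not measured here.

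A few long stretches without a summit held many protein-coding genes, some of them gene families. Those below were named after their values were seen, and expression of their genes was not measured here. Of 185 distances over 1 Mb, 101 contained no protein-coding gene. Among the others, 1.18 Mb at the end of chromosome 1 (chr1:247518005-248699988) held 42 protein-coding genes, mostly olfactory receptors such as OR2C3 and OR2G2. On chromosome 21, 1.58 Mb (chr21:29564381-31144360) held 35, among them the claudin genes CLDN17 and CLDN8. On chromosome 4, 1.39 Mb (chr4:68376363-69761748) held 12, among them UGT2B7 and UGT2B15, enzymes that conjugate steroids and drugs. The stretch with DMD on X was 6.15 Mb long (chrX:30888929-37043591), and another of 7.98 Mb held SOX3 and MAGEC1 among 20 genes (chrX:139932394-147911735).

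A summit lay inside 13989 of 19821 protein-coding genes (70.6%, 95% exact binomial interval 69.9 to 71.2, counting error only). For lncRNA genes it was 4773 of 17904 (26.7%). Among the protein-coding genes 6611 had exactly 1 summit, 238 had 10 or more and 27 had 20 or more. In all, 31555 summits (59.5%) lay inside a protein-coding gene, and these genes cover 42.6% of the span.

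Longer genes held more summits, but far fewer per length. The Spearman correlation of summits per gene and gene length was 0.522 over 19821 genes, and genes that overlap share summits. Of genes under 10 kb, 46.5% had a summit, with a median of 0 and at most 6. Of those from 10 to 50 kb, 73.6% did (median 1), and of those from 50 to 200 kb, 86.8% (median 2). From 200 to 500 kb it was 92.2% (median 3), and at 500 kb or more 93.0% (median 4). Pooled over each class, the density fell from 12.9 summits per 100 kb under 10 kb to 5.47, 2.64, 1.35 and 0.656 in the longer classes. Genes of 500 kb or more thus held a median of only 4 summits more than genes under 10 kb. Within the class of 500 kb or more, the correlation of number and length was 0.0631.

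Within long genes the density of summits was highest at the start, although most summits lay farther in. In 2757 protein-coding genes of 100 kb or more, 49.3% had a summit in their first 1 kb, 1423 summits in all, at a density of 51.6 per 100 kb. From 1 to 5 kb the density was 3.96, from 5 to 20 kb 1.73, from 20 to 50 kb 1.59 and from 50 to 100 kb 1.49. From 100 kb to the end it was 0.969, and that segment held 4185 summits, the most of the 6. The density thus fell steeply within the first 5 kb and more slowly from there to the end.

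**Figure D5:**
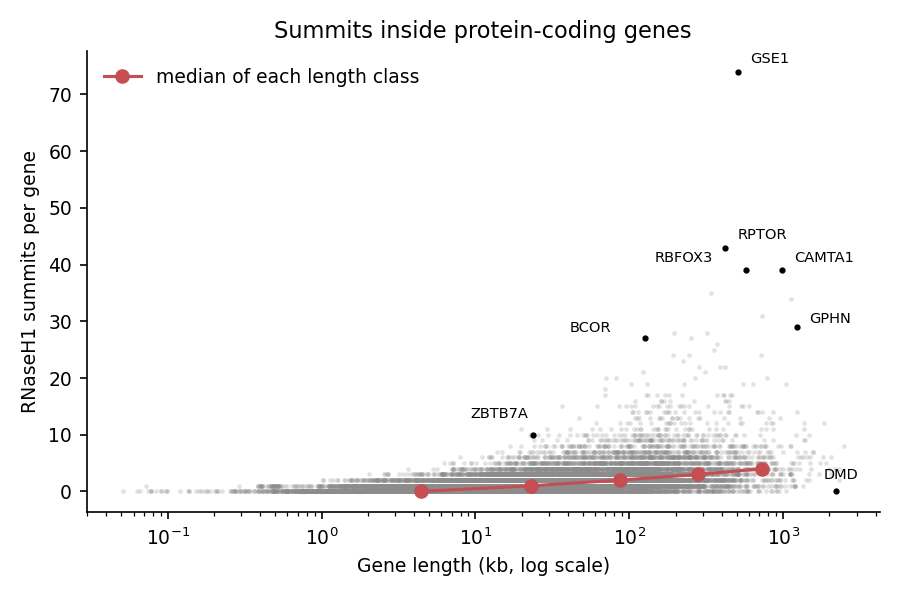
Number of summits inside each protein-coding gene (y axis) against gene length in kb (x axis, log scale), each grey point 1 gene, with 7 genes of many summits and DMD named and red points at the median of each length class. The median rises from 0 under 10 kb to 4 at 500 kb or more, while GSE1 stands at 74.

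GSE1, a subunit of histone deacetylase corepressor complexes, held 74 summits, the most of any gene. Over its 506.7 kb (chr16:85169512-85676200) this is 14.6 per 100 kb, against a median of 0.548 for genes of 500 kb or more. Its folds ran from 1.74 to 5.24 (the highest with a 95% Poisson interval of 4.29 to 6.34, counting error only), 26 of the 74 had a q of 1e-05 or less, and its summits were a median of 5.19 kb apart. The 9 clusters that overlap GSE1 held 60 summits. RPTOR, the scaffold of the growth-regulating complex mTORC1, followed with 43 summits in 421.5 kb, 11 of them at that q. CAMTA1, whose start sequence is given above, had 39 in 984 kb, and RBFOX3, a neuronal splicing factor also known as NeuN, had 39 in 576 kb. Each had 10 at that q. In CAMTA1 the density was 3.96 per 100 kb, in RBFOX3 6.77. ZNF469, a zinc finger gene, held 35 summits in 340 kb, of which 7 had that q. Over the whole list 45.0% of peaks had that q, a larger share than in any of these genes. Their median folds, in the order above, were 2.56, 2.74, 2.82, 2.52 and 2.55.

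BCOR, a corepressor that works with BCL6 and in a Polycomb complex, stood apart on chromosome X, where summits were sparse. It held 27 summits in 126 kb (chrX:40051246-40177277), 21.4 per 100 kb at a median distance of 1.57 kb, and 15 of them had a q of 1e-05 or less, a number that only GSE1 exceeds. DANT2, the lncRNA gene at the macrosatellite, had 28, of which 13 had that q. PRKAG2, a regulatory subunit of the energy sensor AMPK, also had 28, with folds up to 6.48, and TBCD had 28 in 194 kb. TRAPPC9, of a vesicle tethering complex, had 31. For 2 genes most of the count was shared with other protein-coding genes within a long annotated span. RANBP2, a nucleoporin gene, had 34 summits over 1123 kb, and 25 of them lay also in other protein-coding genes such as EDAR and SH3RF3. GPHN, which encodes the receptor anchor gephyrin, had 29 over 1227 kb, 19 of them also in others such as PALS1 and EIF2S1.

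By density, genes on chromosome 19 led. Among 237 protein-coding genes of 20 kb or more with at least 10 summits, STK11 had 44.1 summits per 100 kb (10 summits), ZBTB7A, a transcriptional repressor, 42.4 (10), LTBP4, which binds latent TGF-beta, 40.9 (15), and ABCA7, a lipid transporter, 39.3 (10). The highest fold in STK11 was 5.04 (4.35 to 5.81) and that in LTBP4 4.50 (3.41 to 5.83). HOOK2 followed with 37.5 (11), and the AP-1 gene JUNB lies inside its span. On other chromosomes, BCL9L, a coactivator of Wnt signalling, had 33.6 (10), CSNK1D, a kinase of the circadian clock, 28.8 (10), BAHCC1 28.2 (20) and PKD1, the polycystin gene, 27.5 (13). TPPP had 26.9 (11), but 7 of its summits lay also in CEP72. The uncharacterized LOC124905135 had 26.0 (18), and PLEC, which encodes the cytoskeletal linker plectin, 24.4 (15). PKD1 has near-identical pseudogene copies, so its count is uncertain.

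Among the longest genes without any summit, 4 of 8 were on chromosome X. These were DMD (2220 kb), FRMPD4 (902 kb), PCDH11X (844 kb), a protocadherin, and TENM1 (828 kb), a teneurin. The others were SGCD (1040 kb), a muscle sarcoglycan, CTNND2 (933 kb), TRPM3 (918 kb), an ion channel, and LRRTM4 (775 kb), a synaptic adhesion protein. In all, 22 genes of 500 kb or more had no summit, and 8 of them lie on X, which has only 11 genes of that length. The genes that the transgenes copy had 2 summits each: RNASEH1 with folds of 3.12 and 3.56, and REXO4 with 2.47 and 5.52. In REXO4, 1 of the 2 lay also in another protein-coding gene. Both genes are of the class from 10 to 50 kb, in which 73.6% of protein-coding genes held a summit.

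Gene lists gave the same measure by function, each beside the share that protein-coding genes of the same length classes have. In the list of actin cytoskeleton and focal adhesion genes, 26 of 29 held a summit (89.7%, 77.6% by length class), with a median of 3 summits per gene. MYH9, the non-muscle myosin heavy chain, had 11, CAPZB, which caps actin filaments, 9, and the crosslinker ACTN4 7, while TAGLN2, ITGB1 and LIMA1 had none. All 22 genes of TGF-beta and SMAD signalling held a summit (78.8% by length class), with a median of 2: SMAD3, which carries the signal to the nucleus, had 10, and the inhibitors PMEPA1, SMAD6 and SMURF1 had 8, 7 and 7. In the YAP and TEAD pathway 17 of 20 did (85.0%, 78.3% by length class). STK3, an upstream kinase, had 15, the transcription factor TEAD1 and its cofactor VGLL4 had 7 each, the coactivator WWTR1 had 6, and YAP1 itself, ANKRD1 and AJUBA had none. Of the chromatin regulators 23 of 24 did (95.8%, 83.9% by length class), among them the deacetylase HDAC4 with 25. The remodelling subunits ARID1B and SMARCA4 had 12 and 6, and the acetyltransferase EP300 alone had none.

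Synaptic and channel genes, which are long, held a summit in 23 of 24 cases (95.8%, 92.9% by length class), at a median density of 0.307 per 100 kb. Their median length is 1164 kb, and all protein-coding genes of 500 kb or more had a median density of 0.548, against 2.79 over all lengths. CACNA1C, a calcium channel, had 14 and DLGAP1, a postsynaptic scaffold, had 13. The potassium channel KCNMA1 had 11 and CSMD3 had 10. Markers of mesenchymal cells and osteosarcoma lines held one in 14 of 20 (70.0%, 72.3% by length class). COL5A1 had 9 and RUNX2, the bone transcription factor, had 6 with folds up to 7.29, ALPL, the bone alkaline phosphatase, had 5 and CD44 had 2, while FN1, SPARC, THY1, NT5E, TNC and SPP1 had none. Epithelial markers held one in 10 of 12 (83.3%, 62.2% by length class), with KRT8 at 10, 1 of them also in KRT18, and none in KRT5 and KRT14. Liver, muscle and brain markers did in 7 of 12 (58.3%, 71.2% by length class), with 39 in RBFOX3 and 13 in MBP, and blood markers in 2 of 12 (16.7%, 56.7% by length class), with 2 in SPI1. Summits thus did not separate the markers of this line from epithelial ones, and expression was not measured here. Each list is small, so a few genes move its share widely, and nothing particular to a list can be read from it.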

How the data were processed

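Flag ChIP-seq of RNaseH1-D210N in U2OS cells was analysed from the peak list. The submitters' processing notes name the build hg38 and the programs MACS2 2.1.0.20150731, HISAT2 2.2.1, SAMtools 1.17, Trim Galore 0.6.10, deepTools 3.5.1 and Cufflinks, without their roles. The control and threshold are not stated there. Each peak's fold enrichment (a ratio), −log10 p and −log10 q were used as the authors deposited them, and the largest q is 0.198. The peak score, also deposited, was not used. From the REXO4 list only the number of peaks was used.

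All else was computed here. Fragments at a summit were recovered as the whole number that returns both the fold and the Poisson p. This succeeded within 0.05 fragments for all 54623 peaks. Intervals have a level of 95% and cover counting error only.

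Genes came from RefSeq (GRCh38.p14): 58419 of 59792 were kept, 19821 of them protein-coding on chromosomes 1 to 22 and X. Promoters of chromosome 8 were not used here. A gene's summits are those between its boundaries. Summits within 10 kb were chained, 5 or more made a cluster, and bins were 1 Mb. The named genes were the 12 with most summits, the 12 of highest density (at least 20 kb and 10 summits), the 8 longest without, the 8 top bins, clusters and widest regions, up to 4 per list, and RNASEH1 and REXO4. Arrays, the most even cluster, departing bins, empty stretches and list members without a summit were named after their values were seen, as were promoter sequences to show. Members and lists were chosen with earlier results of these data known. Alternatives were stricter q (0.05 and 1e-05), other chaining distances, bin sizes, gene rules and promoter rules. A few genes selected this way are not reported here. The counting steps were tested on simulated data. Software was pandas 2.3.3, SciPy 1.17.1, NumPy 2.4.6 and matplotlib 3.10.9 under Python 3.11.15.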

Additional observations from a re-analysis of the deposited data

How the results depend on the processing

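No paired analysis was possible because the list carries no value per library. With a q of 0.05 or less, the median width became 368 bp, the median distance 18670 bp and the clustered share 14.0%. With a q of 1e-05 or less, which leaves 24582 peaks, these were 608 bp, 37765 bp and 5.25%. At that q the bin correlation was 0.832, the share of protein-coding genes with a summit 56.9%, the correlation of number and length 0.352, the promoter GC 69.0% (68.7% over all peaks, summit in the window) and the downstream share 71.4%. The clustered share was 4.00% with a chaining distance of 5 kb, 40.3% with 25 kb and 4.42% with 10 or more summits per cluster, so it depends on these settings. The bin correlation was 0.757 in bins of 500 kb, 0.834 in bins of 2 Mb and 0.478 by gene coverage. The share of genes with a summit was 76.8% by any overlap and 78.3% with summits up to 1 kb outside. Among genes with a summit the length correlation was 0.471. On assembled chromosomes without chromosome 21 below 9 Mb, the median width was 364 bp, the median distance 18199.5 bp and the clustered share 14.3%; for width this also leaves out the peaks on other sequences. Added after the data were seen, the promoter GC was 66.7% for summits within 1 kb and 68.0% with 1 window per gene, and the downstream share 71.2% at starts with no other within 5 kb. Each of the 12 genes with most summits lost summits at a q of 1e-05, which a list so much shorter makes likely. By number of summits at that q, GSE1 stayed at rank 1 and BCOR was at rank 2. RPTOR was at rank 6, TBCD at 17, RANBP2 at 24 and ZNF469, with 7 summits, at 34. The order below GSE1 thus depends on the threshold. Low fragment numbers limit the list: over 100 kb from starts a peak's median expected pileup is 4.76 fragments.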
